A study of Arabidopsis thaliana with 6 samples.

Results

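Cytochrome P450 genes were followed in Arabidopsis thaliana seedlings with and without a mutation of PRP8A, the gene of the central protein of the spliceosome. The 157 genes described here are those that the deposited table either names in the CYP nomenclature (a family number, a subfamily letter and a gene number) or describes as cytochrome P450, out of 19807 genes listed. The selection left out 16 listed P450 genes by name, among them CYP74A of jasmonate synthesis, CYP75B1 of flavonoid synthesis, CYP71B15 of camalexin synthesis and the CYP79 and CYP83 genes of glucosinolate synthesis. Seedlings that had spent 8 days in continuous light on plant nutrient medium were harvested whole, giving 3 libraries of Col-0 wild type (replicates 1 to 3) and 3 libraries of prp8a-14 in the Col-0 background (replicates 4 to 6). The labels also write the genotype as prp8-14 and do not say what the allele changes in the protein, nor how many seedlings went into a library. The series calls the libraries biological replicates. The recovered counts totalled 49126331 to 63069817 per library. Levels are in CPM, the counts in each library after scaling by the authors' library sizes, and a gene with no count could still have had up to 3 counts, or 0.0484 to 0.0635 CPM.

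P450 enzymes are haem proteins, most of them anchored in the endoplasmic reticulum, that insert an oxygen atom into small molecules with electrons passed on by NADPH-cytochrome P450 reductase. In plants they make and break down most hormones, build lignin, cutin and suberin, finish sterols and carotenoids, and produce defence compounds. The A-type families form the large CYP71 clan, which expanded by tandem duplication, so many members lie side by side as similar copies. Reads can be shared between such copies, and the single values of close relatives are therefore uncertain.

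The members covered 35 families and 50 subfamilies. CYP71 with 29 genes, CYP705 with 19 and CYP81 with 12 were the largest of them. RefSeq names 240 P450 loci, of which 167 are in the table, so the members are the listed P450 genes and not all P450 genes of the genome. A further 3 listed P450 genes, KO, KAO1 and KAO2 of gibberellin synthesis, carry neither the name nor the description and are given beside the members. Among the members are also ATR1, which encodes the reductase and no P450, and 7 genes that are described as P450 proteins but carry no CYP name.

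More P450 genes fell than rose in prp8a-14. Of 157 members 20 rose, 54 fell and 83 did not pass the test (limma on log2 values, Benjamini-Hochberg (BH) adjusted p under 0.05 over all genes). That was 47.1% of the members, against 35.2% of all genes. Falls made up 34.4% of the members and 17.3% of all genes, and rises 12.7% and 17.9%. The median log2 change was -0.15 over the members and 0.0037 over all genes. No member rose by 2-fold and 9 fell by at least 2-fold. Of all genes 2.33% were called at 2-fold, 0.838% as rises and 1.49% as falls. In 86 members (54.8%) the groups did not overlap, 58 with the mutant below and 28 with the mutant above. Of all genes 48.1% had groups that did not overlap, 23.7% with the mutant below and 24.3% with the mutant above. Summed over the 157 members, the level came to 3842, 3890 and 3720 CPM in wild type, against 3809, 3688 and 3619 CPM in the mutant, so the groups overlapped in the total while single members moved apart. Scaled by library totals alone, 83 members were called, where 40.2% of all genes were. Of these 12 rose and 71 fell, against 10.7% and 29.6% of all genes, and the median over all genes shifted to -0.091. Of the 74 calls, 50 held with each library left out in turn, 12 of them rises and 38 falls.

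**Figure D1:**
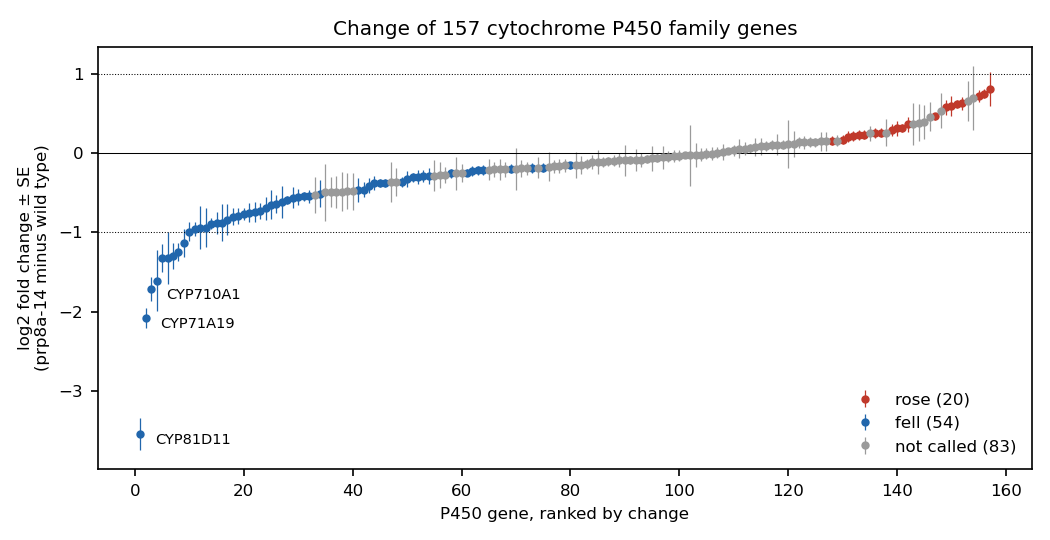
The 157 genes are ranked along the x axis by their log2 fold change (prp8a-14 minus wild type, y axis) with its SE, and coloured by call, with dotted lines at 2-fold. The left tail reaches -3.54 at CYP81D11, and the highest value at the right is 0.81.

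The deepest fall was that of CYP81D11, a P450 known to be induced by foreign chemicals and oxylipins. It stood at 17.4, 20.7 and 12.0 CPM in wild type, against 1.79, 1.16 and 1.29 CPM in prp8a-14. Every mutant library lay far below every wild type library, and the fitted ratio was 11.6-fold lower (log2 change -3.54, SE 0.20, limma with BH, adjusted p = 4.2e-07). With a pseudocount of 1 CPM the log2 change was -2.85, which also passed. CYP71A19 had 14.9, 15.6 and 13.2 CPM in wild type, against 4.00, 2.90 and 3.49 CPM in the mutant, a 4.22-fold fall (log2 change -2.08, SE 0.13, adjusted p = 6.3e-07, limma with BH). Its neighbour on the chromosome, CYP71A20, had a log2 change of 0.54 that did not pass (adjusted p = 0.085, limma with BH), at 0.889, 1.32 and 0.956 CPM in wild type, against 1.45, 1.52 and 1.57 CPM in the mutant. It passed without wild type replicate 2 (0.71), with quantile normalization (0.71) and in limma without trend, and with a pseudocount of 1 CPM its change was 0.30 and did not pass.

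CYP72A8 fell from 27.5, 25.6 and 22.2 CPM to 16.5, 9.65 and 9.22 CPM, with mutant replicate 4 nearest to the wild type libraries (log2 change -1.14, SE 0.18). CYP71B19 fell from 4.27, 3.09 and 3.19 CPM to 1.25, 1.42 and 1.50 CPM (-1.32, SE 0.18). The groups did not overlap in either gene. CYP722A1 went from 1.40, 1.15 and 1.10 CPM to 0.597, 0.296 and 0.613 CPM (-1.32, SE 0.33), and was, with CYP710A4, the lowest in level of the 9, so its fold depends most on the 0.5 counts added to each count. With a pseudocount of 1 CPM the CYP722A1 change was -0.56. The other 4 of the 9, CYP710A1, CYP710A4, CYP94B1 and CYP81F4, are described with their pathways. Just short of 2-fold were CYP78A8 (-0.99) and CYP82F1, which fell from 60.4, 70.5 and 60.3 CPM to 28.4, 34.2 and 36.4 CPM (-0.95, SE 0.09, adjusted p = 1e-05, limma with BH).

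**Figure D2:**
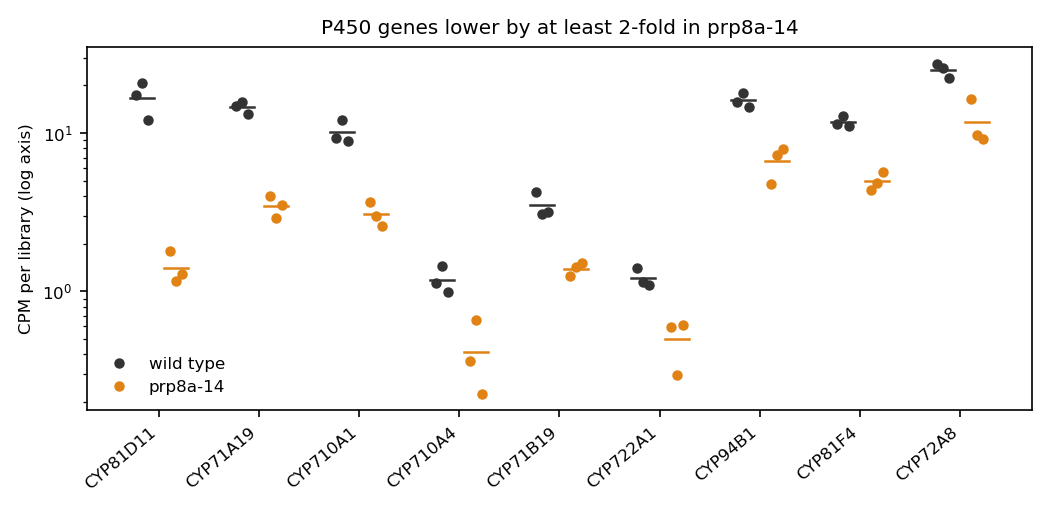
Each point is 1 library on a log axis of CPM, with bars at the group means, for the 9 P450 genes that fell by at least 2-fold. In all 9 the 3 prp8a-14 points lie below the 3 wild type points.

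Brassinosteroids are growth-promoting steroid hormones whose synthesis runs almost entirely through P450 steps. Over all lists by biochemical role, 48.1% of 54 measured members were called, against 35.2% of all genes (17.9% rises and 17.3% falls). The counts of the single lists that follow, of P450 genes and of other enzymes, are to be read beside that share of all genes. Of 8 listed brassinosteroid P450 genes 3 rose and 1 fell, with a median log2 change of 0.14. CYP85A2, which catalyses the last steps to castasterone and brassinolide, stood at 24.4, 24.3 and 22.9 CPM in wild type, against 38.2, 41.0 and 41.3 CPM in the mutant (log2 change 0.75, SE 0.05, adjusted p = 2e-06, limma with BH). CYP90A1, the C-3 oxidase also called CPD, rose from 107, 114 and 107 CPM to 178, 168 and 159 CPM (0.62, SE 0.05, adjusted p = 3.7e-06, limma with BH). Neither gene had overlapping groups. CYP90B1, the C-22 hydroxylase DWF4, rose by 0.22, a call lost without wild type replicate 2 (0.16), without mutant replicate 5 (0.21) and with library totals (0.13). CYP85A1, the close relative of CYP85A2, went the other way, from 3.82, 3.36 and 3.50 CPM to 1.94, 3.03 and 1.97 CPM (-0.65, SE 0.19). Without wild type replicate 1 (-0.60), or without mutant replicate 4 (-0.54) or 6 (-0.55), it did not pass. CYP734A1 and CYP72C1, which inactivate brassinosteroids, did not pass, at -0.18 and 0.06. Among 4 other enzymes of sterol and brassinosteroid synthesis, the sterol reductase gene DIM fell by 0.12 and 0 rose (25% called, below the share of all genes). The DIM call was lost in 5 of the 6 sets with a library left out (changes of -0.11 to -0.13, held without mutant replicate 4) and in limma without trend. The DIM change was -0.22 with library totals and -0.348 with quantile normalization.

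Both gibberellin P450 genes among the members belong to inactivation, and 1 of them fell. CYP714A1, of a family that inactivates gibberellins, stood at 3.48, 5.10 and 3.33 CPM in wild type, against 2.70, 2.73 and 2.74 CPM in the mutant (log2 change -0.51, SE 0.17, adjusted p = 0.035, limma with BH). Wild type replicate 2 was the high library, and without it the change was -0.32 and the call was lost. Leaving out mutant replicate 4 (-0.51), 5 (-0.52) or 6 (-0.52) ended it too, as did quantile normalization (-0.42) and limma without trend. Its neighbour CYP714A2 did not pass (-0.36). The 3 synthesis P450 genes outside the selection all rose. KAO1, of the ent-kaurenoic acid oxidases, went from 7.79, 9.43 and 9.54 CPM to 11.8, 13.0 and 13.1 CPM (0.50, SE 0.10), KAO2 rose by 0.36 and the ent-kaurene oxidase gene KO by 0.36. Of 9 other gibberellin enzymes measured 4 rose and 1 fell. The gibberellin 20-oxidase gene GA20OX2 went from 3.48, 4.01 and 3.82 CPM to 14.3, 11.8 and 10.4 CPM (1.68), GA20OX3 rose by 2.52 from a low level (1.83 without wild type replicate 2, and 1.05 with a pseudocount of 1 CPM), and the ent-kaurene synthase gene GA2 fell by 0.59.

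Abscisic acid is inactivated by the CYP707A 8'-hydroxylases, and 2 of the 3 measured moved in opposite directions. CYP707A3 stood at 9.83, 7.35 and 9.84 CPM in wild type, against 10.0, 18.9 and 20.1 CPM in the mutant, where replicate 4 lay just above the wild type libraries (log2 change 0.81, SE 0.22, adjusted p = 0.014, limma with BH). The CYP707A3 call was lost without wild type replicate 2 (0.67), without mutant replicate 5 (0.67) or 6 (0.62), and in limma without trend. CYP707A2 fell from 11.3, 9.97 and 10.1 CPM to 6.30, 7.49 and 7.59 CPM (-0.55, SE 0.10), with groups that did not overlap, and CYP707A1 did not pass (-0.21). Of 6 synthesis genes measured 2 rose and 1 fell. The zeaxanthin epoxidase gene ZEP rose by 0.50 and the aldehyde oxidase gene AAO3 fell by 0.31. ABA2 rose by 0.19, but held its call among the left-out sets only without mutant replicate 6 (0.15 to 0.21 in the other 5), and lost it with library totals (0.10) and in limma without trend.

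Jasmonoyl-isoleucine, the active jasmonate, is oxidised and so switched off by CYP94 enzymes. CYP94B1 fell from 15.7, 18.0 and 14.5 CPM to 4.78, 7.24 and 7.94 CPM, with no overlap (log2 change -1.30, SE 0.16, adjusted p = 8.6e-05, limma with BH). CYP94C1, which carries the oxidation further to the acid, stood at 5.58, 2.69 and 2.44 CPM in wild type, against 1.83, 1.86 and 1.50 CPM in the mutant (-0.94, SE 0.27, adjusted p = 0.018, limma with BH). Wild type replicate 1 held more than the other libraries, and without it the CYP94C1 change was -0.57 and did not pass. Leaving out mutant replicate 6 (-0.845) and limma without trend ended the call too. CYP94B3, the best known of these hydroxylases, had a change of 0.26 (0.16 with library totals) that did not pass, and neither did CYP94B2 (-0.29). Of 5 other genes of jasmonoyl-isoleucine formation and turnover, the amidohydrolase gene ILL6 rose by 0.31 (adjusted p = 0.0497, limma with BH) and 0 fell. That was 20% called, below the 35.2% of all genes. The ILL6 call was kept among the left-out sets only without wild type replicate 2 (0.20 to 0.35 in the other 5), and ended with library totals (0.22), with a pseudocount of 1 CPM (0.28) and in limma without trend.

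The cytokinin hydroxylase genes CYP735A1 and CYP735A2, which form trans-zeatin, did not pass (log2 changes of -0.02 and 0.15). That of CYP735A2 was 0.03 without wild type replicate 2 and 0.05 with library totals. Of 5 isopentenyltransferase genes measured 2 rose and 0 fell. IPT3 rose by 0.45 and ATIPT9, a relative that modifies tRNA and was not placed in the trans-zeatin pathway here, by 0.53. CYP711A1, the MAX1 enzyme that oxidises carlactone on the way to strigolactones, fell from 23.7, 21.6 and 22.8 CPM to 19.0, 20.4 and 19.4 CPM (-0.21, SE 0.06). That small change no longer passed when wild type replicate 1 (-0.18) or 3 (-0.21), or mutant replicate 4 (-0.19), was left out. D27, the first enzyme of strigolactone synthesis, rose by 0.49 (1 of 3 measured, or 33.3%, near the 35.2% of all genes called).

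**Figure D3:**
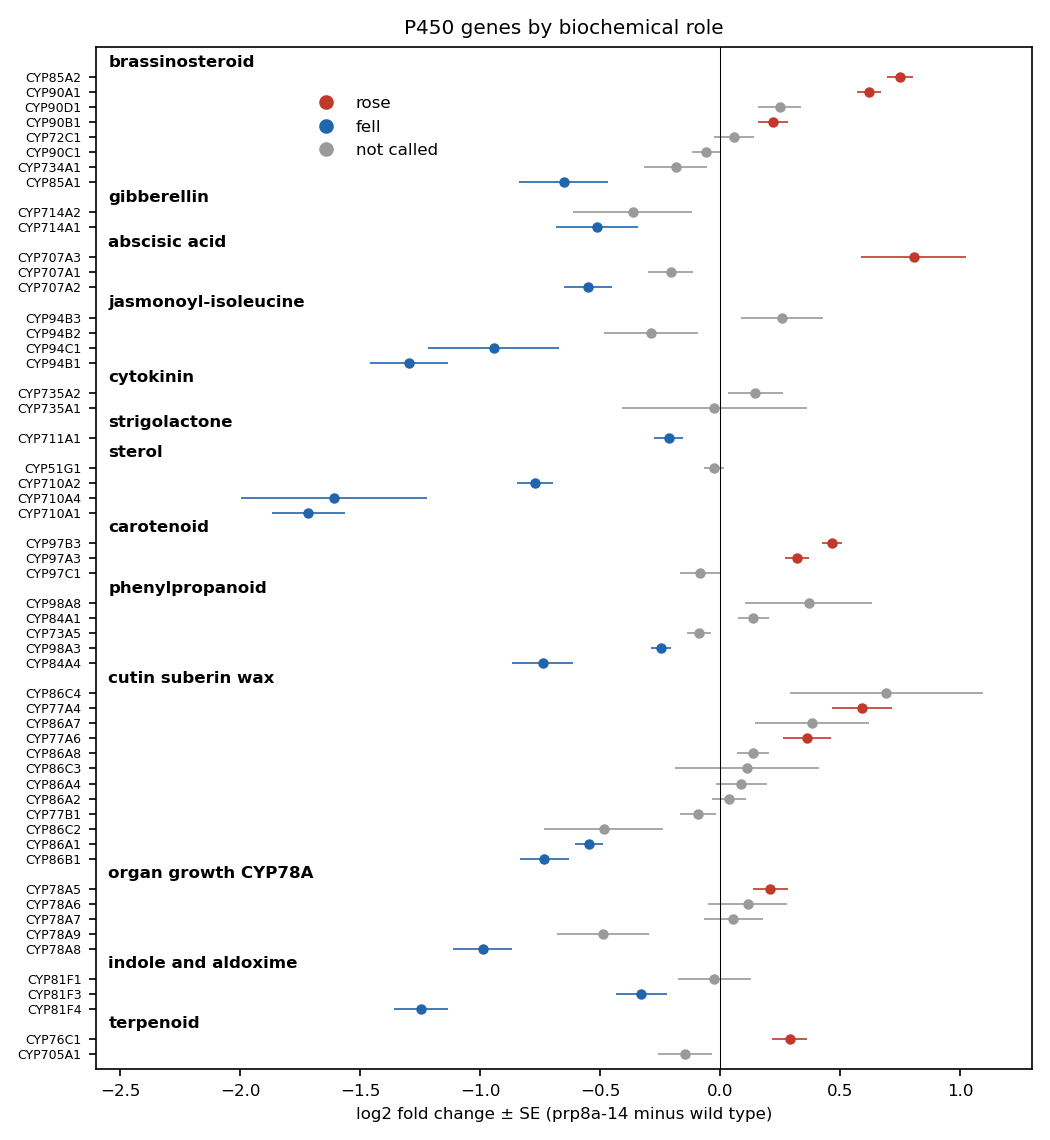
Log2 fold change (prp8a-14 minus wild type) with its SE for the 54 measured P450 genes on lists drawn up by biochemical role, coloured by call. Brassinosteroid and carotenoid genes hold 5 of the 10 rises, and CYP710A1, CYP710A4, CYP94B1 and CYP81F4 lie farthest to the left.

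The sterol C-22 desaturases of the CYP710A family, which turn sitosterol into stigmasterol, fell in all 3 measured genes. CYP710A1 went from 9.32, 12.1 and 8.85 CPM to 3.64, 2.98 and 2.58 CPM (log2 change -1.72, SE 0.15, adjusted p = 8.5e-06, limma with BH). CYP710A2, which lies beside it, fell from 26.0, 28.9 and 25.3 CPM to 17.0, 15.3 and 14.7 CPM (-0.77, SE 0.07). CYP710A4 fell at a low level, from 1.12, 1.45 and 0.991 CPM to 0.362, 0.656 and 0.226 CPM (-1.61, SE 0.39, and -0.63 with a pseudocount of 1 CPM). None of the 3 had overlapping groups. CYP51G1, the sterol 14-demethylase that acts early in the pathway, stood at 130, 133 and 134 CPM in wild type, against 131, 125 and 133 CPM in the mutant and did not pass (-0.03). With library totals it passed, at -0.12. Of 3 other sterol enzymes the C-14 reductase gene FK fell by 0.20, a call lost without wild type replicate 3 (-0.19) and without mutant replicate 4 (-0.19) or 5 (-0.18).

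Carotenoids receive their ring hydroxyl groups partly from plastid CYP97 enzymes. CYP97A3, the beta-ring hydroxylase LUT5, rose from 77.0, 71.4 and 71.9 CPM to 94.2, 94.1 and 86.9 CPM (log2 change 0.32, SE 0.05). CYP97B3, of the same family, rose from 71.7, 71.5 and 71.5 CPM to 98.1, 103 and 95.3 CPM (0.47, SE 0.04, adjusted p = 9.3e-06, limma with BH). The groups stood apart in both. CYP97C1, the epsilon-ring hydroxylase LUT1, did not pass (-0.08). Other genes of the pathway rose as well, 7 of 10 with 1 fall. The non-P450 ring hydroxylase genes BETA-OHASE 1 and BETA-OHASE 2 rose by 0.57 and 0.52, the desaturase gene PDS by 0.40, and the isomerase gene CRTISO fell by 0.51. Of 9 leaf photosynthesis markers 8 rose and 0 fell, and their summed level was 24016 to 25247 CPM in wild type, against 32774 to 36545 CPM in the mutant, with none at 0. Their part in these results was not tested, and a larger share of a cell type cannot be told apart from more RNA per cell.

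Lignin and other phenylpropanoids need P450 hydroxylases at 3 points of the pathway. CYP73A5, cinnamate 4-hydroxylase, had the highest level per length of all members, 134 CPM per kb of transcript ± 5.78 (SD, n = 3) in wild type. It had a change of -0.09 that did not pass, and it passed with library totals (-0.18) and with quantile normalization (-0.16). CYP98A3, the 3-hydroxylase of the shikimate ester, fell from 139, 143 and 133 CPM to 118, 117 and 116 CPM (-0.25, SE 0.04, adjusted p = 0.00077, limma with BH). CYP84A1, ferulate 5-hydroxylase, did not pass (0.14). It passed without mutant replicate 6 (0.22), and its change was 0.08 without mutant replicate 4 and 0.04 with library totals. Its relative CYP84A4 fell from 6.22, 7.12 and 5.77 CPM to 3.62, 3.51 and 4.31 CPM (-0.74, SE 0.13). CYP98A8 did not pass (0.37). So of 5 measured P450 genes on this list 2 fell and 0 rose, 40% called, near the 35.2% of all genes. Of 13 other enzymes 8 fell and 2 rose. The cinnamyl alcohol dehydrogenase gene CAD5 fell by 0.65 and CCoAOMT1, a methyltransferase, by 0.50. PAL2 rose by 0.25 and PAL3, of the same ammonia-lyase family, by 0.22, calls that both ended with library totals (0.16 and 0.13) and in limma without trend, and that of PAL3 also without wild type replicate 2 (0.21) and mutant replicate 4 (0.17) or 5 (0.20).

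Suberin, the barrier polymer of the root endodermis, and cutin, that of the shoot surface, are both made from fatty acids oxidised by P450 enzymes. CYP86A1 and CYP86B1, the fatty acid omega-hydroxylases of suberin, fell. CYP86A1 went from 43.5, 48.2 and 47.0 CPM to 29.7, 33.5 and 31.7 CPM (log2 change -0.55, SE 0.06), and CYP86B1 from 14.3, 18.2 and 15.7 CPM to 9.03, 10.8 and 9.10 CPM (-0.73, SE 0.10). No mutant library reached a wild type library in either gene. CYP77A4, a fatty acid epoxidase, rose from 2.80, 3.04 and 3.17 CPM to 4.52, 4.70 and 4.34 CPM (0.59, SE 0.12), and CYP77A6, which hydroxylates cutin precursors, rose by 0.36. The CYP77A6 call was lost without wild type replicate 3 (0.32) and without mutant replicate 4 (0.32). CYP86A2, a cutin hydroxylase and after CYP73A5 the highest in level at 81.4 CPM per kb ± 3.47 (SD, n = 3) in wild type, had a change of 0.04 that did not pass and turned negative with library totals, with quantile normalization and without mutant replicate 4. The other 7 of the 12 measured genes matched to this list did not pass. Lists were matched by CYP name, so a member without such a name could not be placed on one. Called were 33.3% of these 12, near the 35.2% of all genes. CYP86A2 stood at 184, 185 and 171 CPM in wild type, against 210, 181 and 167 CPM in the mutant, which overlap.

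Among 16 other enzymes of these polymers 5 rose and 6 fell (31.3% and 37.5%, against 17.9% and 17.3% of all genes). FAR4 and KCS2, which form the fatty alcohols and long acyl chains of suberin, fell by 0.81 and 0.67, as did FAR5 (-0.63) and the feruloyl transferase gene HHT1 (-0.59). KCS20, a 3-ketoacyl-CoA synthase gene like KCS2, rose by 0.17 (adjusted p = 0.029, limma with BH). DCR and CER1, of cutin and surface wax, rose by 0.60 and 0.55. Among those that did not pass were GPAT6 (-0.20), LACS2 (-0.05) and CER3 (-0.05). Of 8 measured root tissue markers 6 fell and 1 rose, and their summed level was 325 to 341 CPM in wild type, against 288 to 303 CPM in the mutant, with none at 0. The largest fall among these markers was that of the Casparian strip gene CASP1, of the endodermis, by 0.74. SCR was the marker that rose, by 0.25, and SHR did not pass (-0.0031). The part of root tissue in the falls of CYP86A1 and CYP86B1 was not tested.

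**Figure D4:**
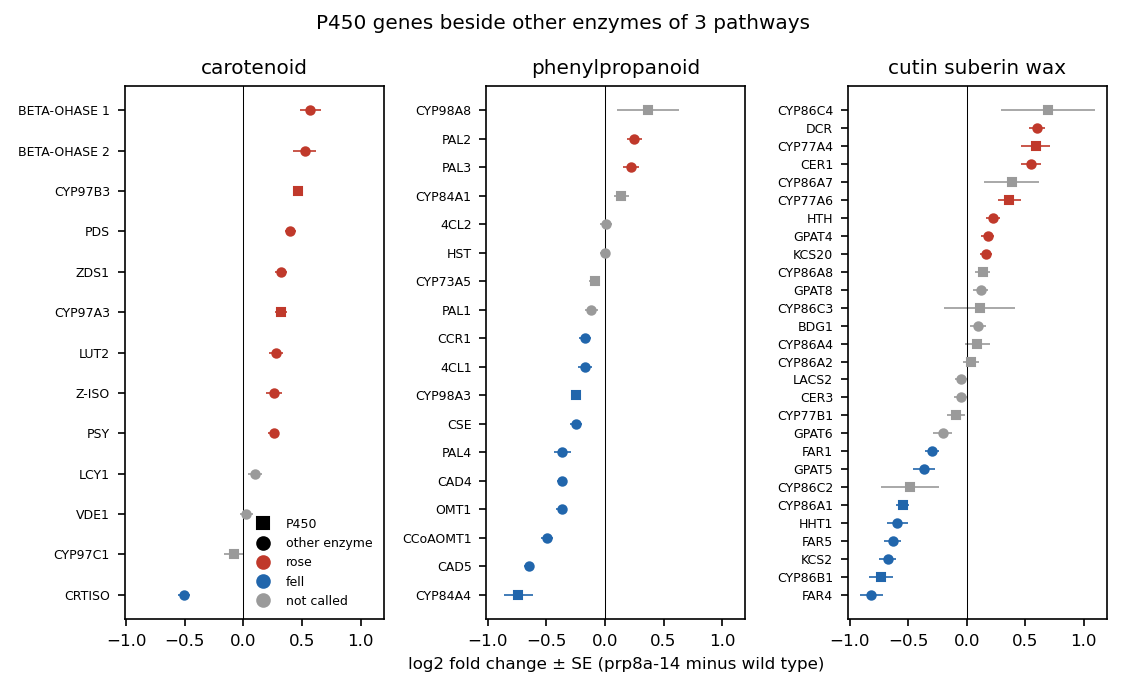
Log2 fold change (prp8a-14 minus wild type) with its SE for P450 genes (squares) and other enzymes (circles) of 3 pathways, coloured by call. CYP97A3 and CYP97B3 lie among the risen carotenoid genes, CYP98A3 and CYP84A4 among the fallen phenylpropanoid genes, and CYP86A1 and CYP86B1 beside FAR4, FAR5 and KCS2.

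The CYP78A family makes a mobile growth signal of unknown structure. CYP78A8 fell from 8.77, 8.27 and 10.0 CPM to 5.19, 4.45 and 4.00 CPM (log2 change -0.99, SE 0.12, adjusted p = 8e-05, limma with BH). CYP78A5, known as KLUH, rose by 0.21 (adjusted p = 0.0469, limma with BH), and that call held among the left-out sets only without wild type replicate 2 and mutant replicate 5. Its changes were 0.19 without wild type replicate 1 or 3, 0.16 without mutant replicate 4 and 0.20 without 6, and library totals (0.11), quantile normalization (0.21) and limma without trend ended the call as well. The remaining 3 CYP78A genes did not pass. In indole glucosinolate modification CYP81F4, which leads to the 1-methoxy form, fell from 11.4, 12.8 and 11.0 CPM to 4.38, 4.85 and 5.68 CPM (-1.25, SE 0.11, adjusted p = 8.8e-06, limma with BH), with groups well apart. Its neighbour CYP81F3 fell by 0.33 although its groups overlapped. It did not pass once wild type replicate 2 (-0.23) or 3 (-0.31) was left out, once mutant replicate 4 (-0.26) or 5 (-0.29) was, nor in limma without trend. CYP81F1, in the same run of genes, did not pass (-0.02). CYP76C1, a linalool oxidase, rose from 18.3, 17.5 and 16.0 CPM to 21.4, 22.4 and 19.7 CPM (0.29, SE 0.07).

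Outside the role lists stood 103 members, most of them CYP71, CYP705, CYP72, CYP81 and CYP89 genes with few established substrates. In the CYP71B subfamily 12 of 21 genes fell and 2 rose, so 66.7% were called. Of all genes 35.2% were called, 17.3% as falls and 17.9% as rises. In CYP705A 7 of 19 fell and 0 rose (36.8% called, near the share of all genes), with a median log2 change of -0.21. The largest CYP705A fall was that of CYP705A9, from 9.26, 10.0 and 8.90 CPM to 5.54, 4.93 and 5.78 CPM (-0.79, SE 0.10). CYP705A33 and CYP705A19 fell by 0.46 and 0.38. Of 8 CYP71A genes 3 fell and 0 rose (37.5% called, also near that share). CYP89A9, which modifies chlorophyll breakdown products, fell by 0.55, from 14.1, 15.2 and 13.7 CPM to 10.5, 9.76 and 9.23 CPM. Of 6 CYP706A genes CYP706A7 fell by 0.56 and 0 rose (16.7% called, below the share of all genes).

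Neighbouring members did not always move alike. With at most 1 protein-coding gene between them, 75 members formed 23 runs of adjacent P450 genes, by the gene order of RefSeq assembly TAIR10.1. At least 1 called fall and no called rise (falls alone) was found in 15 runs. The reverse (rises alone) was found in 1, both directions in 2, and no call in 5. Falls alone does not mean that the whole run fell. In the run from CYP706A4 to CYP706A7, 1 of 4 genes was called, and beside CYP71A19 stood CYP71A20 at 0.54, not called. Falls made up 34.4% of the members and 17.3% of all genes, and runs of other genes were not counted. On chromosome 3 all 6 genes of the run from CYP71B19 to CYP71B24 fell, by log2 changes of -1.32 for CYP71B19, -0.31 for CYP71B20, -0.80 for CYP71B22, -0.59 for CYP71B23, -0.70 for CYP71B3 and -0.89 for CYP71B24. CYP71B23 stood at 39.8, 40.8 and 43.0 CPM in wild type, against 27.8, 27.4 and 26.7 CPM in the mutant.

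The next run on that chromosome held both directions. CYP71B4 rose from 16.0, 17.2 and 13.6 CPM to 25.0, 24.4 and 20.5 CPM (log2 change 0.58, SE 0.10), and CYP71B26 from 15.7, 13.3 and 13.3 CPM to 21.2, 22.5 and 21.4 CPM (0.63, SE 0.08). At the other end of the run CYP71B36 fell by 0.75, and CYP71B37 fell from 19.8, 20.4 and 19.8 CPM to 10.0, 11.2 and 11.2 CPM (-0.89, SE 0.07, adjusted p = 3.5e-06, limma with BH). None of these 4 genes had overlapping groups. In the CYP72A run CYP72A13 fell by 0.37 and CYP72A15 rose by 0.17, a rise that ended on leaving out wild type replicates 2 (0.17) and 3 (0.14) or mutant replicates 4 (0.15) and 5 (0.15) one at a time, with library totals (0.08), with quantile normalization (0.14) and in limma without trend. The run with rises alone was that of CYP81D5 and CYP81D4, which rose by 0.25 and 0.26. With library totals both changes were 0.16, and that of CYP81D5 no longer passed. In the same run CYP81D8, a relative of CYP81D11, had 3.88, 3.72 and 4.03 CPM in wild type, against 3.80, 2.35 and 3.05 CPM in the mutant, with a change of -0.36 that passed, among the alternatives, only without mutant replicate 4 (-0.53). It was -0.19 without mutant replicate 5.

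**Figure D5:**
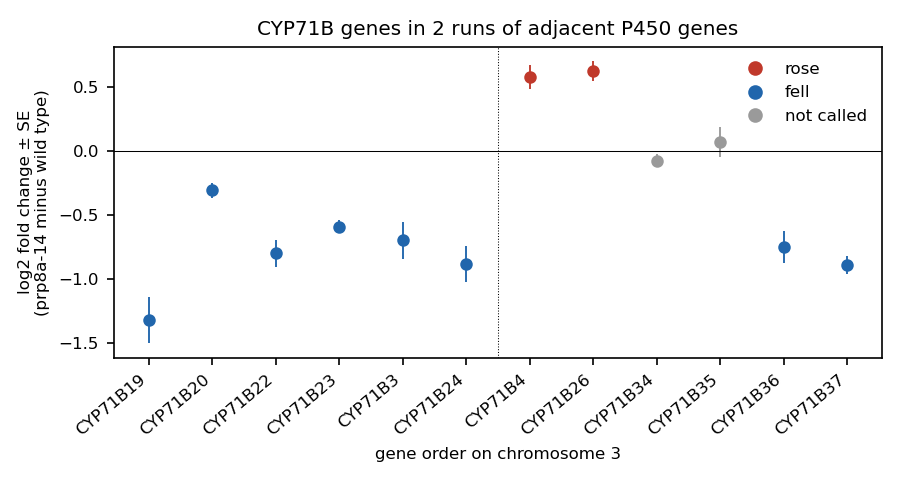
Log2 fold change (prp8a-14 minus wild type) with its SE for 12 CYP71B genes in their order on chromosome 3, coloured by call, with a dotted line between the 2 runs. All 6 genes left of the line fell, and the right run goes from 0.58 and 0.63 at CYP71B4 and CYP71B26 to -0.75 and -0.89 at CYP71B36 and CYP71B37.

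Because PRP8A acts in splicing, the members were also set out by exon number (longest RefSeq transcript). Of 32 members with 1 exon 3 rose and 7 fell, of 82 with 2 or 3 exons 8 rose and 34 fell, and of 43 with 4 or more exons 9 rose and 13 fell. Among all genes of these classes 32.4%, 35.1% and 35.6% were called, against 31.3%, 51.2% and 51.2% of the members. Falls made up 21.9%, 41.5% and 30.2% of the members by class, against 16.4%, 19.4% and 16.8% of all genes. Each class held 3 of the 9 falls of at least 2-fold. All 3 genes of the CYP710A family, which fell, have 1 exon, as has CYP94B1, while CYP71A19, CYP72A8 and CYP722A1 have 4, 5 and 9. A-type genes had a median of 2 exons, and 8 of 88 rose and 33 fell. The 61 non-A-type genes had a median of 4 exons, and 10 rose and 19 fell. The difference between these classes was not tested.

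Of the 7 P450 members without a CYP name AT3G44970 and AT3G06150 rose, AT5G08250 (-0.84) and AT1G73340 (-0.64) fell, and the others did not pass. The role lists were matched by CYP name, so none of these 7 could be counted in a list. AT3G44970, described as a P450 superfamily protein, rose from 54.1, 50.4 and 47.0 CPM to 92.0, 83.7 and 74.3 CPM, with no overlap (log2 change 0.72, SE 0.07, adjusted p = 2.1e-05, limma with BH). Within family CYP709, CYP709B3 rose by 0.23 and CYP709B2 fell by 0.94, from 1.08, 1.36 and 1.57 CPM to 0.652, 0.741 and 0.662 CPM. Both calls depended on single libraries. That of CYP709B2 was lost without wild type replicate 3 (-0.81), and that of CYP709B3 without wild type replicate 2 (0.21) and mutant replicate 4 (0.18) or 5 (0.21), with library totals (0.13) and in limma without trend. With a pseudocount of 1 CPM the CYP709B2 change was -0.47. CYP96A12 rose by 0.31, but not without wild type replicate 3 (0.23) or mutant replicate 4 (0.24), nor with library totals (0.22) or in limma without trend.

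P450 enzymes receive their electrons from ATR1-type reductases and, in some cases, cytochrome b5. ATR1, the reductase among the members, stood at 191, 200 and 192 CPM in wild type, against 200, 200 and 193 CPM in the mutant, and did not pass (log2 change 0.02, and below 0 with library totals and with quantile normalization). Of 8 listed redox partner genes, ATR1 included, 0 rose and 2 fell (25% called, below the 35.2% of all genes). The cytochrome b5 gene CYTB5-C fell from 53.3, 51.5 and 53.3 CPM to 35.8, 34.4 and 36.6 CPM (-0.57, SE 0.05, adjusted p = 4.5e-06, limma with BH). CYTB5-D fell by 0.14, a call that ended on leaving out mutant replicate 5 (-0.098) or wild type replicates 2 and 3 one at a time (-0.13 each) and in limma without trend. With library totals it was -0.23.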

How the data were processed

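Poly-A selected RNA was measured in 6 libraries. Tools listed in the submitters' processing notes, which assign none of them a step, are edgeR, limma, Salmon 0.8.2, STAR 2.5.1a, featureCounts 1.4.6-p5, Subread and bcl2fastq. The genome build, the annotation and whether strand was used are not given there or in the labels. The deposited values are log2 of CPM with 0.5 added to each count, over the authors' scaled library sizes, as the values themselves show, since undoing this gave whole counts (within 0.1) for 100% of them in each library. The table's other 3 sample columns could be tied to no label and were left unused. Whether they entered the authors' scaled sizes, on which all CPM values and fold changes rest, is not known. Repeated lines (272) were dropped.

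All 19807 genes were fitted with limma 3.58.1 in R 4.3.3 (eBayes with an intensity trend), two-sided, BH-adjusted. The code was also run on simulated counts with a common spread for all genes and few genes changed. That setting differs from these data, so the calls here do not rest on it. CPM values are recovered counts over the authors' sizes. Precision is limited by 3 libraries per group. The p-values set the group difference against the spread between these libraries, after that spread was drawn towards a trend over all genes. The 3 counts at which the floor is set cover counting error only. The alternatives were scaling by library totals, genes averaging at least 5 CPM, quantile normalization, pseudocounts of 0.1 and 1 CPM, limma without trend, each library left out, and, added after seeing the data, voom weights.

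Members and lists were chosen with earlier results of these data known. Named were members called at 2-fold; up to 2 rises and 2 falls from each of 14 P450 lists and 11 partner lists, or the P450 with the smallest p; and the 3 highest per length. Other named genes were chosen after their values were seen. Exon numbers, transcript lengths and gene order came from RefSeq assembly TAIR10.1, and no coordinates are printed. Plots were drawn with matplotlib 3.10.9 and tables made with pandas 2.3.3 and numpy 2.4.6 under Python 3.11.15.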

Additional observations from a re-analysis of the deposited data

How the results depend on the processing

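The number of changed P450 genes, 74, ran from 61 to 70 with each library left out and from 61 to 83 under the other alternatives. Falls (54) ran from 41 to 71 and stayed above rises in each alternative run. Rises (20) were 12 with library totals, the alternative that moved that count by over 1.5 times. Calls of at least 2-fold in either direction (9, all falls in the main fit) ran from 10 to 12 with a library left out. They were 13 with library totals, and 6 both at a mean of at least 5 CPM and with a pseudocount of 1 CPM. Of the 74 calls 48 held in every alternative that tested the gene, 10 rises and 38 falls. The log2 change of CYP86A2 turned to -0.058 with library totals, -0.018 with quantile normalization and to -0.054 without mutant replicate 4 (0.112 without mutant replicate 6), that of ATR1 to -0.073 and -0.043 with library totals and quantile normalization, and that of CYP97C1 to 0.0037 without mutant replicate 6 (-0.147 without mutant replicate 4, and -0.18 with library totals). None of these passed the test and the cause was not tested. No paired analysis was possible because the replicate numbers of the groups (1 to 3 and 4 to 6) are not shared. The planned edgeR and DESeq2 fits were not run, and the recovered counts were fitted with voom weights alone. The depth limits members near 1 CPM, whose fold changes depend on the added counts.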
